A study of Mus musculus with 6 samples.

Results

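The Notch genes described here are the receptors Notch1, Notch2 and Notch3, the ligands Dll1, Dll3 and Jag1, and the effectors Hes1, Hes5, Hes6 and Hey1. They were taken by symbol from the count tables, which list 55433 genes, and all 10 were present and passed the filter on low counts that left 17711 genes for testing. RNA came from the whole spinal cord of mouse embryos of strain C57BL/6J at E13.5 (E for the embryonic day). Of the 6 libraries, 3 had the genotype NFIA-ff and are labelled control, and 3 had NFIA-ff;Nestin-cre and are labelled NFIAcKO. Both groups thus carry the NFIA-ff alleles, and the groups differ by the Nestin-cre transgene, which is used to act in neural progenitors and the cells born from them. The cells in which the gene was deleted, and whether vessels, blood and meninges kept it intact, were not tested. The question was the role of NFIA, a transcription factor, in motor neuron development.

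Notch signalling passes between touching cells. A ligand on one cell binds a receptor on its neighbour, the receptor is cut by ADAM proteases and then by γ-secretase, and its intracellular domain enters the nucleus, where it joins the DNA-binding protein RBPJ and Mastermind proteins and switches on Hes and Hey genes. In the developing spinal cord the Hes1 and Hes5 repressors keep cells as progenitors, while newborn neurons display Dll1 to their neighbours. NFIA belongs to the nuclear factor I family and is best known as an early regulator of gliogenesis in the cord.

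The promoter of Hes5, a classical target of activated Notch receptors, shows the kind of site through which the pathway acts. The windows are the 250 bases before the start of transcription in RefSeq (GRCm38.p6). Of the 10 genes 8 had an entry, with 10 windows in all, and the effectors Hes1 and Hey1 had none. Capitals mark the core of the RBPJ binding motif, TGGGAA, on either strand, with TTCCCA as its reverse. The window of Hes5 (chr4:154960673-154960922, plus strand) and, for comparison, that of Hes6 (chr1:91414039-91414288, minus strand), the effector with the highest level per length, read 5′ to 3′ along the gene:
Hes5: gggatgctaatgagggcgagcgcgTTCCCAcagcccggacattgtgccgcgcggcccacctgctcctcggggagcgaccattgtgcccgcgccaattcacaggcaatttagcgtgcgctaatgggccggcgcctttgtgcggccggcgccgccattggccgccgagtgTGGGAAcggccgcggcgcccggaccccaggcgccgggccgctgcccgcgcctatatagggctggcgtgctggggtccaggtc
Hes6: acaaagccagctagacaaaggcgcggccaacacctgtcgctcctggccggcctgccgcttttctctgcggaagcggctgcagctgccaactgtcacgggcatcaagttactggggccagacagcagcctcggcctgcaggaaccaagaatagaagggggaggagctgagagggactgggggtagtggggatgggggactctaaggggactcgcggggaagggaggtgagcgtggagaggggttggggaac
Hes5 held the motif at 226 to 221 bases before the start on the minus strand and at 82 to 77 bases on the plus strand. None of the other 9 windows had it, and the promoters of Hes1 and Hey1 could not be searched. Of 32851 windows of the same length over all genes, 21.6% held TGGGAA and 1.28% held it on both strands, as that of Hes5 did. The N box CACNAG, which Hes repressors bind, was found in the windows of Notch1, Notch2 and Notch3 and in the second window of Hes6, against 36.7% of all windows. The NFI core motif TTGGC was found in 6 of the 10 windows, those of Notch3, Dll3, Hes5, Hes6 (both) and 1 of 2 of Dll1, against 41.5% of all windows. Both strands were searched, and the RBPJ and NFI matches in Hes5 did not overlap.

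Gene counts summed to between 43393053 and 51465763 per library. Every pair of libraries within a group differed by more than sampling noise, so all 6 were kept as separate samples. The labels do not say whether they came from separate litters, and p-values measure the spread between these samples. Nfia, the targeted gene, went against the labels. It had 60.1, 59.1 and 79.2 CPM (counts scaled to library size) in control replicates 1, 2 and 3 and 106, 108 and 119 CPM in NFIAcKO replicates 1, 2 and 3, or 0.75 higher on the log2 scale (SE 0.11, edgeR adjusted p = 0.0031). The rise held (0.62, edgeR adjusted p = 0.0111) once a trend with transcript length and GC content, described below, was removed. The sources used here do not name the flanked exons, and a count over the whole gene need not show the deletion. The cause of the rise was not tested, nor was an exchange of the labels. Directions below are therefore those of the libraries labelled NFIAcKO against the libraries labelled control. On the first principal component of log2 CPM, the control libraries were spread out, at -21.9, -40.3 and 0.828 for replicates 1, 2 and 3, with replicate 3 nearest to the NFIAcKO libraries (19.5 to 21.1). On the second component NFIAcKO replicate 2 was at -34.2, and the other libraries lay between -8.47 and 22.1.

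In the libraries labelled NFIAcKO all 3 receptors and the ligand Jag1 rose, by 1.26-fold to 1.37-fold, and the effector Hes5 fell by 23.2%. The ligands Dll1 and Dll3 and the effectors Hes1, Hes6 and Hey1 did not pass the test. A gene was said to rise or fall at a Benjamini-Hochberg adjusted p under 0.05 over all genes tested, in edgeR's quasi-likelihood test, with fold changes given as NFIAcKO over control. The 4 rises among 10 genes stood beside 7.86% of all tested genes rising, and the 1 fall beside 6.08% falling. The median log2 fold change of the 10 genes was 0.18, against -0.01 over all tested genes. The groups did not overlap for 4 genes higher in NFIAcKO (17.3% of all tested genes) and for 2 lower, Hes5 and Hes1 (16.1%). None of these calls held once a trend of fold change with transcript length, described below, was removed. In bulk tissue, fewer cells of a type and less RNA per cell cannot be told apart.

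**Figure D1:**
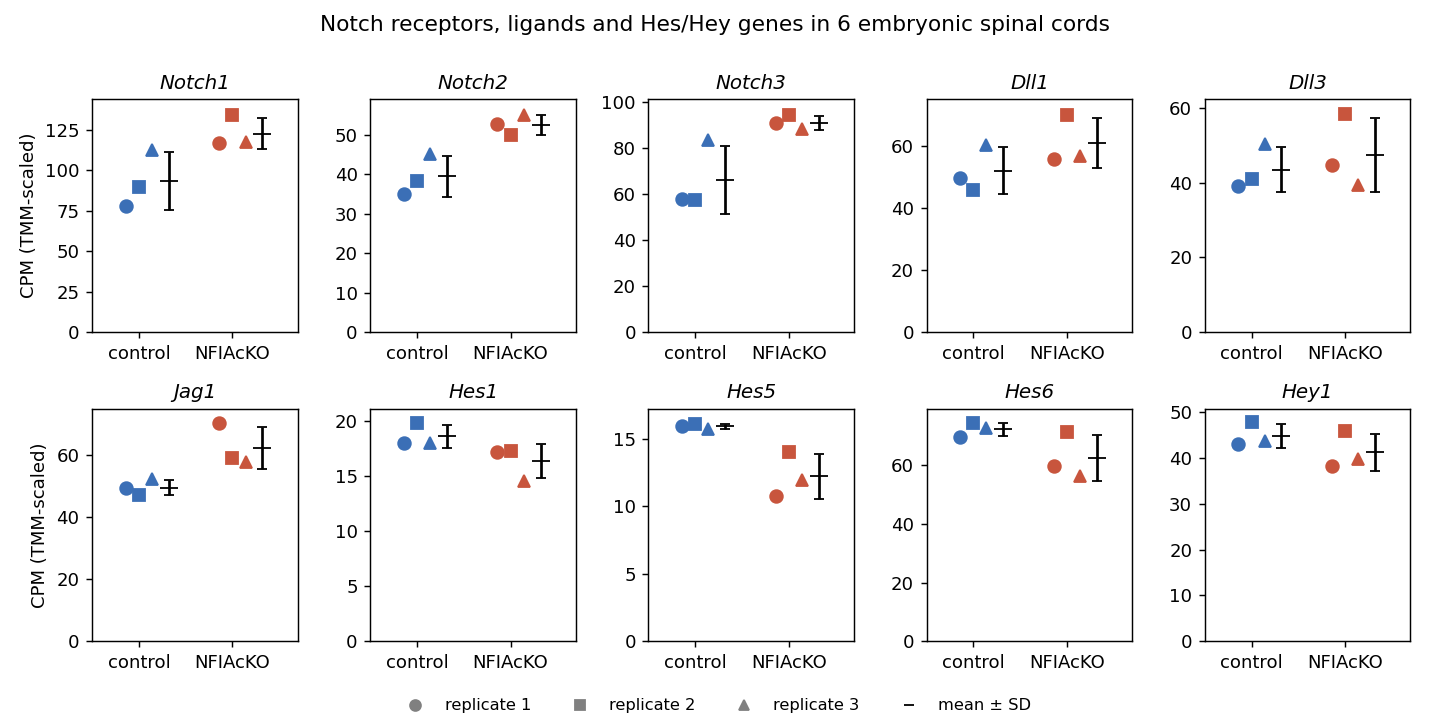
CPM of each of the 10 Notch genes by library (points, with bars for the mean of each group and SD, n = 3), 1 panel per gene with its own axis from 0. For the receptors and Jag1 the 3 NFIAcKO points lie above the 3 control points, and for Hes5 and Hes1 they lie below them.

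Among the receptors, Notch1, a main receptor of neural progenitors, lies on mouse GRCm38 at chr2:26457903-26516663 (minus strand). It had 77.7, 89.5 and 113 CPM in control replicates 1 to 3 and 117, 134 and 117 CPM in the NFIAcKO libraries. Control replicate 3 was close to the NFIAcKO libraries, and the groups did not overlap. The means were 93.3 ± 17.8 and 123 ± 9.75 CPM (SD, n = 3 each), and the log2 fold change was 0.39 (SE 0.12, edgeR adjusted p = 0.0404). Notch1 was called without control replicate 3 (adjusted p = 9.96e-05) but not when any other library was left out (0.183 and 0.253 without control replicates 1 and 2, and 0.0974, 0.142 and 0.096 without NFIAcKO replicates 1, 2 and 3).

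Notch2 (chr3:98013527-98150361, plus strand), a receptor of neural progenitors and many other cells, had 35.0, 38.3 and 45.2 CPM in the control libraries and 52.8, 49.9 and 55.0 CPM in the NFIAcKO libraries. All 3 NFIAcKO values were above the highest control, replicate 3. The log2 fold change was 0.41 (SE 0.10, edgeR adjusted p = 0.015), with means of 39.5 ± 5.22 and 52.6 ± 2.58 CPM. The call was lost without control replicate 1 (0.0938), NFIAcKO replicate 1 (0.0704) or NFIAcKO replicate 3 (0.0812).

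Notch3 (chr17:32120820-32166852, minus strand) is a receptor of vascular mural cells as well as of neural progenitors. It had 57.8, 57.6 and 83.3 CPM in the control libraries and 90.7, 94.2 and 88.2 CPM in the NFIAcKO libraries. Control replicates 1 and 2 were alike and low, replicate 3 was near the NFIAcKO libraries, and there was no overlap. The log2 fold change of 0.46 (SE 0.12, edgeR adjusted p = 0.03) was the largest among the 10 genes, with means of 66.3 ± 14.8 and 91.0 ± 2.99 CPM. Without control replicate 3 it was called; without control replicate 1 or 2 (adjusted p = 0.129 and 0.166) or NFIAcKO replicate 1, 2 or 3 (0.0947, 0.0934 and 0.0838) it was not.

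Of the ligands, Jag1 (chr2:137081456-137116644, minus strand), which in the cord marks certain progenitor domains and is also found in vessels, was the only one to pass. Its level was 49.1, 47.1 and 52.0 CPM in the control libraries and 70.0, 59.0 and 57.7 CPM in the NFIAcKO libraries. The control values were close together, the NFIAcKO values were all higher, and replicate 1 was the highest. The means were 49.4 ± 2.48 and 62.2 ± 6.77 CPM, and the log2 fold change was 0.33 (SE 0.09, edgeR adjusted p = 0.0263). Jag1 remained called without control replicate 3 but not without control replicate 1 or 2 (adjusted p = 0.1 and 0.0808) or NFIAcKO replicate 1, 2 or 3 (0.153, 0.0555 and 0.058).

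Dll1 (chr17:15367354-15376872, minus strand), the ligand of newborn neurons, had 49.8, 45.9 and 60.6 CPM in the control libraries and 55.8, 70.3 and 56.9 CPM in the NFIAcKO libraries. Control replicate 3 exceeded NFIAcKO replicates 1 and 3, so the groups overlapped, and the log2 difference was 0.23 (SE 0.11, edgeR adjusted p = 0.195). Without control replicate 3 the difference was 0.34 and passed (adjusted p = 0.00678). Dll3 (chr7:28293553-28302238, minus strand), a family member that acts inside the cell and does not activate receptors on neighbours, had 39.2, 40.9 and 50.4 CPM in the control libraries and 44.6, 58.2 and 39.2 CPM in the NFIAcKO libraries. NFIAcKO replicate 2 was the highest and replicate 3 matched the lowest control. The log2 difference for Dll3 was 0.12 (SE 0.14, adjusted p = 0.599), and it was -0.05 without NFIAcKO replicate 2.

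Of the effectors, Hes5 (chr4:154960923-154962371, plus strand), whose promoter window is printed above, was the one to fall. Its level was 15.9, 16.1 and 15.7 CPM in the control libraries and 10.7, 14.0 and 11.9 CPM in the NFIAcKO libraries. The 3 control libraries lay within a narrow range and all 3 NFIAcKO libraries lay below it, with replicate 1 the lowest. The means were 15.9 ± 0.202 and 12.2 ± 1.67 CPM, and the log2 fold change was -0.38 (SE 0.12, edgeR adjusted p = 0.0442). Hes5 was still called without control replicate 3 (adjusted p = 0.0176) or NFIAcKO replicate 2, and not without control replicate 1 or 2 (0.123 and 0.0898) or NFIAcKO replicate 1 or 3 (0.211 and 0.115). A predicted gene on the opposite strand, Gm20421, shares 433 bp with Hes5, 31.8% of its summed exons, and had counts of 2 to 5 per library.

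Hes1 (chr16:30064384-30067796, plus strand), the other main repressor of neuronal differentiation, had 18.0, 19.8 and 18.0 CPM in the control libraries and 17.2, 17.3 and 14.6 CPM in the NFIAcKO libraries. All NFIAcKO values were below all control values, but the log2 difference of -0.19 did not pass (SE 0.11, edgeR adjusted p = 0.267). Hes6 (chr1:91411483-91414038, minus strand), which opposes Hes1 and is found in cells becoming neurons, had 69.8, 74.3 and 72.5 CPM in the control libraries and 59.8, 71.3 and 56.3 CPM in the NFIAcKO libraries. NFIAcKO replicate 2 was within the control range, and the log2 difference was -0.21 (SE 0.09, adjusted p = 0.137). Hey1 (chr3:8663359-8667256, minus strand), a repressor that Notch induces in progenitors and in vessels, had 43.0, 47.8 and 43.8 CPM against 38.2, 45.9 and 39.8 CPM. Again NFIAcKO replicate 2 lay among the controls, and the log2 difference was -0.12 (SE 0.09, adjusted p = 0.417).

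**Figure D2:**
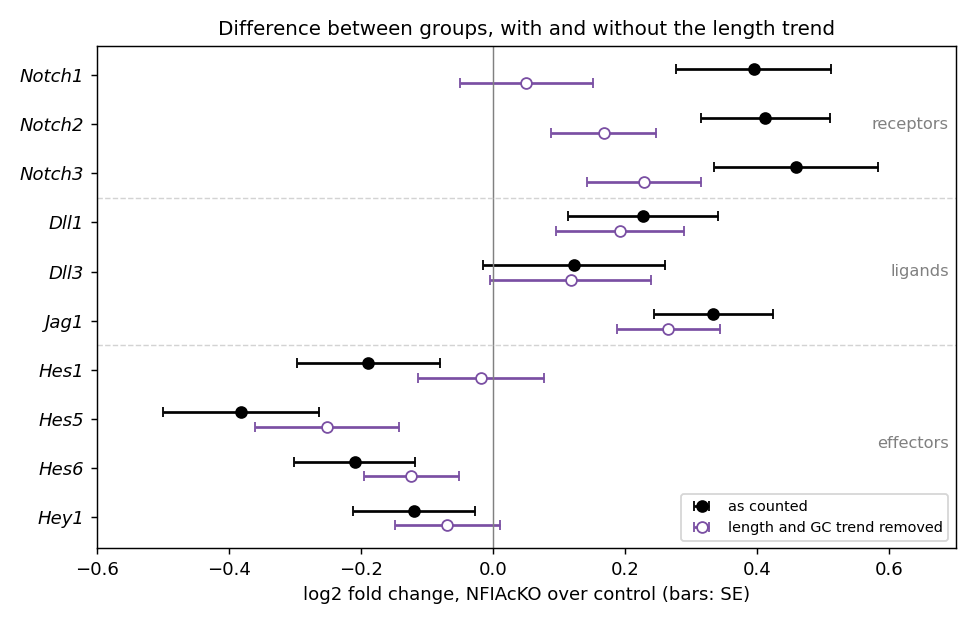
Log2 fold change (NFIAcKO over control) of each Notch gene with its SE, as measured and with the length and GC trend of each library removed. The 3 receptors and 3 ligands lie above 0 and the 4 effectors below 0; with the trend removed none passes.

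The receptors, which rose, have the longest transcripts of the 10 genes, and Hes5, which fell, the shortest. Over all tested genes, the log2 fold change increased with summed exonic length. In the shortest eighth of genes (56 to 1482 bp), which holds Hes5 (1363 bp), the median was -0.23, with 0.365% of genes rising and 11.4% falling. In the longest eighth (8654 to 123179 bp), which holds Notch1 (14232 bp) and Notch2 (10782 bp), the median was 0.21, with 32.8% rising and 0.959% falling. Notch3 (8089 bp) was in the next longest eighth, with a median of 0.11 and 14.4% rising. The effectors measured 1363 to 3265 bp and the ligands 2850 to 5827 bp.

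**Figure D3:**
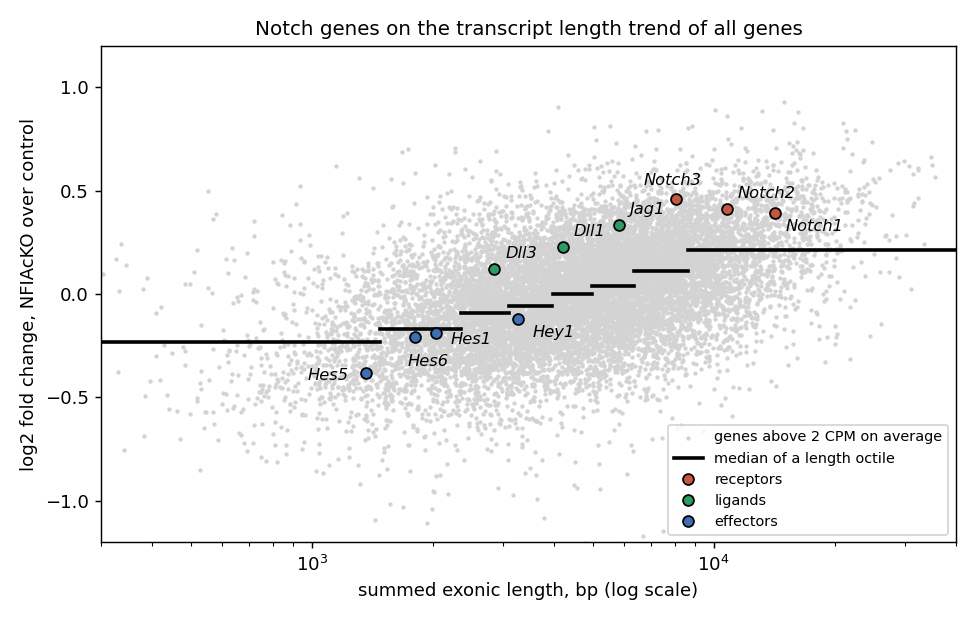
Log2 fold change (NFIAcKO over control) against summed exonic length in bp on a log axis, for genes above 2 CPM on average (grey), with the median of each eighth of genes by length (black lines) and the 10 Notch genes coloured by role. The medians climb from -0.23 to 0.21, with the effectors at the short end and the receptors at the long end.

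As a description without a test, the log2 fold change less the median of the gene's own eighth was 0.18 for Notch1, 0.20 for Notch2, 0.35 for Notch3, 0.23 for Dll1, 0.21 for Dll3 and 0.29 for Jag1. For the effectors this distance was -0.02 (Hes1), -0.15 (Hes5), -0.04 (Hes6) and -0.06 (Hey1), and that of Hes1, Hes6 and Hey1 was smaller than the SE of the gene's own log2 difference. When the trend with length and GC content was removed from each library and the test repeated over all genes, none of the 10 genes passed in edgeR. In that fit 3.83% of all tested genes rose and 3.88% fell. Nearest to the threshold were Jag1, at 0.26 (adjusted p = 0.053), and Notch3, at 0.23 (adjusted p = 0.118). Hes5 stood at -0.25 (adjusted p = 0.165), Notch2 at 0.17 (0.205) and Notch1 at 0.05 (0.804). The median over the 10 genes was 0.08. The cause of the trend was not tested.

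The names of the deposited files carry a number that replicates 1 and 2 of both groups share and another that replicate 3 of both groups share. What these numbers stand for is not stated in the labels. Within the larger set the log2 difference of the mean levels was 0.58 for Notch1, 0.49 for Notch2, 0.68 for Notch3 and 0.42 for Jag1. In the pair of replicates 3 it was 0.06, 0.28, 0.08 and 0.15. The receptors and Jag1 thus differed less in that pair, which holds control replicate 3, and a pair has no replicate error. For Hes5 both sets gave nearly the same difference, -0.39 and -0.40. For Dll1 the values were 0.39 and -0.09, and for Dll3 0.35 and -0.36, of opposite sign. The other effectors were lower in both sets, at -0.13 and -0.31 for Hes1, -0.14 and -0.37 for Hes6 and -0.11 and -0.14 for Hey1.

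Per kilobase of summed exons, Hes6 had by far the highest level in the control libraries, 39.9 ± 1.27 CPM per kb (SD, n = 3). Dll3 (15.3 ± 2.12), Hey1 (13.7 ± 0.795), Dll1 (12.3 ± 1.80) and Hes5 (11.7 ± 0.148) followed, each overlapping the next. Below a gap came Hes1 (9.14 ± 0.519), Jag1 (8.48 ± 0.426), Notch3 (8.19 ± 1.83) and Notch1 (6.56 ± 1.25), whose neighbours also overlapped, and Notch2 was the lowest at 3.66 ± 0.484 CPM per kb. In the NFIAcKO libraries Hes6 (34.5 ± 4.36 CPM per kb) and Notch2 (4.88 ± 0.239) kept the ends of the order. Hes5 stood at 8.97 ± 1.22, below Notch3 (11.3 ± 0.369) and Jag1 (10.7 ± 1.16), which it exceeded in the controls. With the longest transcript as the length, the ends of the order were the same and the middle differed, with Hey1 second (18.5 CPM per kb) and Notch1 (9.83) above Jag1 (8.80) and Notch3 (8.27) in the controls.

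Notch1 made up 35.6 ± 1.35% of the receptor level per kb in the control libraries and 34.8 ± 1.61% in the NFIAcKO libraries, and Notch3 44.3 ± 2.08% and 45.5 ± 0.596%. The share of Notch2 was 20.5, 20.9 and 18.7% in the control libraries and 19.7 ± 1.55% in the NFIAcKO libraries. The shares of all 3 receptors overlapped between the groups. Among the 4 effectors the share of Hes5 was 16.2, 15.3 and 15.6% in the control libraries and 12.9, 14.2 and 14.8% in the NFIAcKO libraries. All 3 NFIAcKO shares of Hes5 were below all control shares. The share of Hey1 was 18.2, 19.0 and 18.2% in the control libraries and 19.2, 19.5 and 20.6% in the NFIAcKO libraries, higher in all 3 of the latter. Hes6 held 53.6 ± 0.591% and 53.8 ± 1.06% of the effector level in the control and NFIAcKO libraries. The count of Hes5 for each count of Notch1 was 0.205, 0.180 and 0.139 in the control libraries and 0.0919, 0.105 and 0.102 in the NFIAcKO libraries, lower in every NFIAcKO library. These shares and ratios follow from the same counts and carry the length trend, as the genes differ in length.

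Among 49 other genes of the pathway, 48 were tested, 5 rose, 4 fell and 39 did not pass. The 5 rises and 4 falls stand beside the 7.86% of all tested genes that rose and the 6.08% that fell, shares near those of the pathway. The median log2 fold change of the 48 was 0.11. Dlk1 had no counts in any library, which cannot tell a silent gene from one to which no reads were assigned. With the length trend removed 1 of 48 rose and 2 fell, beside 3.83% and 3.88% of all tested genes. The clearest was Spen, a co-repressor that binds RBPJ in the absence of Notch signal, with 138, 127 and 159 CPM in the control libraries and 217, 220 and 215 CPM in the NFIAcKO libraries. Its NFIAcKO values lay close together, well above every control. Spen rose 1.54-fold (log2 0.62, SE 0.09, edgeR adjusted p = 0.0028), rose again with the trend removed (0.27, adjusted p = 0.0228), and was called in all 19 alternative fits. Besides Spen, 2 genes of the nuclear complex rose among the 10 tested, the Mastermind coactivator Maml3 (log2 0.41, adjusted p = 0.0124) and the Groucho co-repressor Tle3 (0.39, adjusted p = 0.0322). Neither Maml3 nor Tle3 passed with the trend removed (edgeR adjusted p = 0.0938 and 0.451). Rbpj itself, chosen after its values were seen, had 86.7 ± 5.27 and 97.9 ± 3.41 CPM (log2 0.18, adjusted p = 0.146).

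Of 6 other Hes and Hey genes, Hey2, a repressor related to Hey1, fell. It had 24.8, 23.9 and 20.7 CPM in the control libraries and 18.2, 17.2 and 14.8 CPM in the NFIAcKO libraries, without overlap. The log2 fold change was -0.47 (SE 0.11, edgeR adjusted p = 0.0161), and -0.45 with the trend removed (adjusted p = 0.026). Its call was lost without control replicate 1 (0.0819), NFIAcKO replicate 1 (0.0534) or NFIAcKO replicate 3 (0.0788).

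Of the 5 sugar transferases, which modify the receptor's extracellular domain and alter its response to ligands, 2 fell and none rose. Poglut1, which adds O-glucose, went from 78.1 ± 10.3 to 62.2 ± 1.81 CPM (log2 -0.33, edgeR adjusted p = 0.0308, and 0.0335 with the trend removed). Lfng, the Lunatic fringe enzyme that favours Delta over Jagged signals, went from 39.4 ± 2.79 to 31.7 ± 2.70 CPM (log2 -0.31, adjusted p = 0.0396, and 0.0553 with the trend removed). Both were called without control replicate 3 and lost when any other library was left out, with adjusted p up to 0.115 for Poglut1 and 0.139 for Lfng.

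Of the 4 ubiquitin ligases that act on ligands, Mib1, which prepares them for internalisation, rose (log2 0.28, edgeR adjusted p = 0.0373). Of 9 genes of receptor proteolysis, Psenen, a small subunit of γ-secretase, fell (log2 -0.37, adjusted p = 0.0333). Among 9 negative regulators Dtx1, a Deltex ubiquitin ligase, rose (log2 0.31, adjusted p = 0.0337). None of these 3 passed with the trend removed (adjusted p = 0.239, 0.32 and 0.139). Of 5 other receptors and ligands none passed, and the smallest p belonged to Notch4, an endothelial receptor, at 18.0 ± 2.95 and 23.1 ± 1.86 CPM (log2 0.36, adjusted p = 0.0639). Notch4 was called in DESeq2 (adjusted p = 0.0292), without the filter on low counts (0.0203) and without control replicate 3 (0.00156). With 1 library left out, Maml3 stayed called without control replicate 2 or 3, Tle3 without control replicate 3 or NFIAcKO replicate 3, and Mib1, Psenen and Dtx1 only without control replicate 3. Leaving out any other library took the adjusted p as high as 0.0603 for Maml3, 0.145 for Tle3, 0.198 for Mib1, 0.127 for Psenen and 0.142 for Dtx1.

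**Figure D4:**
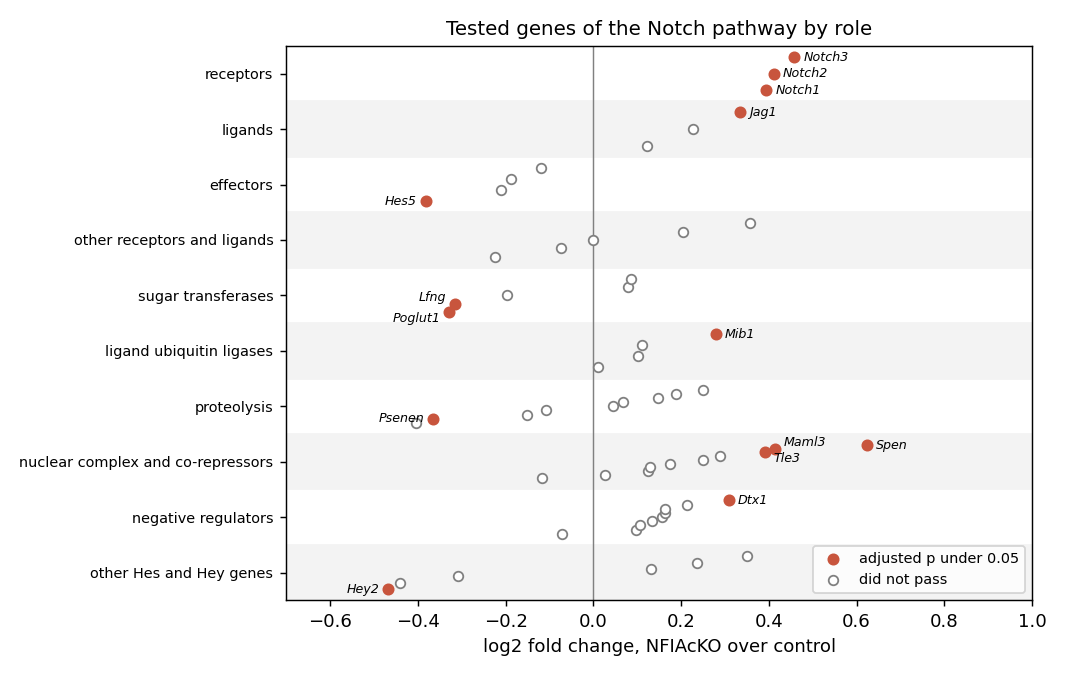
Log2 fold change (NFIAcKO over control) of every tested gene of the Notch pathway, grouped by role, with filled points for genes at an adjusted p under 0.05. The 3 receptors, Jag1, Mib1, Maml3, Tle3, Spen and Dtx1 are filled to the right of 0, and Hes5, Hey2, Lfng, Poglut1 and Psenen to the left.

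Markers of cell types that a dissected cord can hold were counted in the same fit. Their calls stand beside the 7.86% of all tested genes that rose and the 6.08% that fell. Of 10 progenitor markers 1 rose, Nes (edgeR adjusted p = 0.0289), and 2 fell, Fabp7 (0.0075) and Slc1a3 (0.027). The log2 difference was above 0 for 8 of the 10, beside 8661 of all 17711 tested genes. The summed level of the 10 was 3156 to 3347 CPM in the control libraries and 3026 to 3377 CPM in the NFIAcKO libraries. Of 10 markers of dividing cells 1 rose, Mki67, from 44.4 to 82.2 CPM (adjusted p = 0.0225), with sums of 311 to 460 and 401 to 518 CPM. Among 10 neuronal markers 4 rose and none fell, with sums of 10268 to 11091 and 12167 to 12535 CPM that did not overlap. The endothelial sums did not overlap either, nor did those of microglia, sensory ganglia and Schwann cells given below. No sum was tested, and the sums carry the length trend, as the genes differ in length. Of single tested genes, 17.3% were higher and 16.1% lower in NFIAcKO without overlap. Of 10 endothelial markers, which bear on Jag1, Hey1 and Notch4, 4 rose and 2 fell. Cdh5 (edgeR adjusted p = 0.0073) and Kdr (0.0105) were among the rises, and Cldn5 (0.0195) and Egfl7 (0.0204) were the falls. The endothelial sums were 335 to 396 and 414 to 448 CPM. With 1 library left out, Cdh5 was called each time, Kdr not without control replicate 1 (0.0518) or NFIAcKO replicate 1 or 2 (0.0529 and 0.0518), and Fabp7 not without NFIAcKO replicate 1 (0.0517). Slc1a3 and Mki67 were called only without control replicate 3, with adjusted p up to 0.113 and 0.109 without any other library. For mural cells, which bear on Notch3, 2 of 10 rose and 1 fell, with sums of 375 to 434 and 383 to 397 CPM. Levels within the mural list differed widely over the 6 libraries. Rgs5 had 136 to 207 CPM and Vtn 105 to 121 CPM, while Tagln and Higd1b were under 1 CPM in every library.

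In markers of other tissues, 4 of 9 tested microglial genes fell, with sums of 115 to 126 and 87.7 to 97.8 CPM. Trem2 was at 0 in every library, which, as for Dlk1, need not mean a silent gene. The 10 genes of sensory ganglia, 10 of meninges and 7 of muscle and cartilage gave no call, with sums of 282 to 291 and 246 to 276 CPM, 1329 to 1716 and 1541 to 2122 CPM, and 161 to 235 and 230 to 260 CPM. The muscle regulator Myod1 and the cartilage gene Matn1 were at or near 0, while Col2a1 of the same list had 82.2 to 134 CPM. Of 9 erythroid genes 2 rose, with sums of 1878 to 2127 and 1657 to 2290 CPM. Of 7 tested genes of Schwann cells and neural crest 2 fell, with sums of 1082 to 1356 and 898 to 936 CPM, a sum that Fabp7 dominates. With the length and GC trend removed, 5 of the 11 marker lists held calls, beside 3.83% of all tested genes rising and 3.88% falling. In these, 4 neuronal, 3 erythroid and 2 endothelial genes rose, and 1 endothelial, 1 progenitor and 1 microglial gene fell. Neither the 4 neuronal nor the 3 erythroid genes were exactly those called in the main fit. Fabp7 (log2 -0.21, edgeR adjusted p = 0.0695), Mki67 (0.72, 0.0656), Nes (0.33, 0.0549) and Cldn5 (-0.16, 0.144) were not called in the fit with the trend removed. Slc1a3 (edgeR adjusted p = 0.0242), Cdh5 (0.0141), Kdr (0.0383) and Egfl7 (0.0269) were called. The part of these cell types in the differences of the Notch genes was not tested.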

How the data were processed

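RNA-seq of 6 whole spinal cords was measured as whole-number counts per gene symbol, deposited by the authors as 1 table per library, not normalized. Per the labels, a stranded mRNA library kit was used. STAR 2.6.1a, HTSeq, DESeq2 and mm10 appear in the submitters' processing notes, without their roles. The annotation release is not given in the sources used here, nor is the strand setting. It is therefore not known whether reads in the stretches that Notch1, Notch3, Dll1 and Hes5 share with antisense genes were counted or left out as ambiguous. Notch2 shares 541 bp, 5.02% of its summed exons, with Gm42820 on the same strand. The antisense genes of Notch1, Notch3 and Hes5 had counts of at most 31 per library, which do not show how many shared reads were left out. The one of Dll1, A930024N18Rik, shares 867 bp with it and was matched to no row by that symbol.

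The 5 summary lines of each table (16.9 to 19.4% of its total) were left out. Groups were compared in edgeR 4.0.16 (R 4.3.3) with TMM scaling, filterByExpr and the robust quasi-likelihood F test, adjusted by Benjamini-Hochberg over 17711 genes. CPM are on TMM-scaled library sizes, and the SE of a log2 fold change was derived from F. The biological coefficient of variation was 11.5%. Length, GC content and coordinates came from GENCODE M21 (GRCm38, which mm10 names), matching 53642 symbols, with values for 98.8% of tested genes. The trend with length and GC was removed by natural splines of 5 degrees of freedom per library, entered as offsets. Alternatives were other scalings, filters and tools (DESeq2 1.42.0, limma-voom 3.58.1), a replicate block, Xist level as a covariate (both groups held libraries of both sexes), trend removal, and leaving out each library.

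The Notch genes, the pathway and marker lists and the tests were chosen with earlier results of these data known. Named were the 10 genes, the called genes of the other pathway lists (up to 4 per list, or the smallest p where none was called), Nfia, and up to 2 markers per cell type. Further markers were named after their values were seen, to show calls in the other direction or the range of levels in a list.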

Additional observations from a re-analysis of the deposited data

How the results depend on the processing

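Over 19 alternatives the direction of the 10 Notch genes was kept in each, except for Dll3, which ran from -0.0501 without NFIAcKO replicate 2 to 0.24 without control replicate 3. The difference of Rbpj was -0.00933 with the length and GC trend removed and -0.0101 with the replicate block added. The main fit called 4 Notch genes higher and 1 lower, other pathway genes 5 higher and 4 lower, and all genes 1392 higher and 1076 lower. With the trend removed these counts were 0 and 0, 1 and 2, and 678 and 688. Replicate block and trend removal together gave 0 and 0, 1 and 3, and 712 and 793. Tested against a fold change of 1.2, they were 0 and 0, 1 and 0, and 27 and 14. Leaving out 1 library gave 0 to 5 and 0 to 1 Notch genes, 1 to 12 and 0 to 5 other pathway genes, and 282 to 2703 and 139 to 2466 of all genes, the highest number of calls coming without control replicate 3. With upper quartile scaling or Xist as a covariate 3 Notch genes rose, as Notch1 missed the threshold (adjusted p = 0.0558 and 0.0596), and under upper quartile scaling 42.4% of all calls were higher, against 56.4%. The replicate block alone gave 4 and 1 Notch genes, 4 and 4 other pathway genes, as Tle3 missed the threshold (adjusted p = 0.061), and 1353 and 1119 of all genes. The replicate numbers were not taken to pair the samples: same-numbered libraries correlated in their deviations at 0.0875, 0.12 and 0.119, each best with its own number. Replicate 2 alone had high Xist (335 CPM in control, 201 CPM in NFIAcKO) and no Ddx3y in each group. Replicate 3 alone had the other number in its file name. Sex and file number thus cannot be told apart from the replicate number. Blocking on the number in the file names gave 4 and 1 Notch genes, 7 and 4 other pathway genes, and called Notch4 (0.0444), with 1701 and 1411 of all genes. Nes, Cldn5 and Egfl7 were not followed when a library was left out. Of the other genes named as called, Nfia, Spen and Cdh5 were called whichever library was left out. Each of the rest lost its call without at least 1 library.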
